A study of Mus musculus with 6 samples.

Results

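Carboxylesterases, alcohol and aldehyde dehydrogenases, flavin monooxygenases and aldehyde oxidases are enzyme families with which the liver hydrolyses esters and oxidises alcohols, aldehydes, amines and aromatic rings, in foreign compounds and in its own metabolites. Their transcripts were followed in whole mouse liver with and without Dicer in hepatocytes. The genes were chosen by symbol alone (Ces1 to Ces5, Aldh1 to Aldh9, Adh1 to Adh7, Fmo1 to Fmo9 and Aox1 to Aox4 with any suffix, leaving out names that end in -ps and a number). The rule found 58 of the 50600 genes in the tables: 20 Ces, 21 Aldh, 6 Adh, 7 Fmo and 4 Aox genes. In Dicer LKO liver, transcripts of the carboxylesterase Ces3b fell to 39.5% of the control level. Those of the aldehyde dehydrogenase Aldh3b3, which only the Dicer LKO libraries lifted past the filter on low counts, rose from near 0 to a low level. Both passed the main test narrowly. The call of Ces3b was lost when any 1 library was left out, and that of Aldh3b3 in most such fits. Most other carboxylesterase genes and both aldehyde oxidases of liver had lower values that did not pass the main test, whereas the libraries of the groups overlapped for the most abundant alcohol and aldehyde dehydrogenases.

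The knockout group (Dicer LKO, n = 3) had the genotype Dicerloxp/loxp;Alb-cre. In it both Dicer alleles are flanked by loxP sites and the albumin promoter drives Cre recombinase in hepatocytes. Whether other cells of the liver, such as those of the bile ducts, also lost Dicer was not tested. The control group (n = 3) had the genotype Dicerloxp/loxp without Cre, so both groups carried the loxP-flanked alleles; the series text calls the controls wild type. All animals were C57BL/6 mice about 1 month old, and the labels do not say whether each library came from a separate animal. The p-values therefore measure only the spread between these libraries, which may be partly technical. Dicer cuts miRNA precursors to mature miRNAs, which pair with 3′ untranslated regions through their seed and lower the stability and translation of the messenger.

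Carboxylesterases are serine hydrolases of the endoplasmic reticulum, and one of them, Ces1c, is secreted into mouse plasma. Several also hydrolyse triacylglycerol and other lipid esters in hepatocytes. Alcohol and aldehyde dehydrogenases work in sequence from alcohol to aldehyde to acid, for ethanol, retinol and the aldehydes that arise from amino acids and lipids. Flavin monooxygenases add oxygen to nitrogen and sulfur atoms, and aldehyde oxidases are molybdenum enzymes that oxidise aldehydes and aromatic nitrogen heterocycles.

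The libraries held 14141973 to 25049749 expected counts, with control replicate 3 the shallowest. Dicer1 was at 28.9, 31.2 and 24.4 CPM (counts relative to the TMM-adjusted library size) in Dicer LKO replicates 1, 2 and 3 and at 42.5, 69.3 and 56.1 in control replicates 1, 2 and 3, a log2 fold change of −0.99 (SE 0.20, adjusted p = 0.0622 by edgeR's quasi-likelihood test). All 5 hepatocyte markers were expressed, with a summed level of 55000 to 67300 CPM in Dicer LKO and 36600 to 68900 CPM in control libraries. Ddx3y, on the Y chromosome, ranged from 85.1 to 121 CPM over the 6 libraries, and Xist did not exceed 0.270 CPM. Of the 11 heart muscle markers, 8 had no count in Dicer LKO replicates 1 and 2, while their sum reached 129 CPM in control replicate 3. The acute-phase gene Saa1 was at 8448 CPM in Dicer LKO replicate 2 and 2911 CPM in control replicate 2, against 10.1 to 1837 CPM in the other libraries. Mitochondrial genes took 10.19% of the counts in control replicate 3 and 4.62% to 6.46% in the others, with Dicer LKO replicate 2 lowest. The part of these library differences in the member values was not tested.

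Because Dicer makes miRNAs, the seed matches and start regions of the genes described most fully are shown first. Of the 41 members that passed the filter on low counts, 15 (36.6%) held at least 1 match to bases 2 to 8 of the 11 miRNAs searched in their longest annotated 3′ untranslated region (GENCODE M21, GRCm38), against 62.2% of 12612 tested genes. The 11 were let-7a-5p, miR-21a-5p, miR-22-3p, miR-26a-5p, miR-29a-3p, miR-30a-5p, miR-101a-3p, miR-103-3p, miR-148a-3p, miR-192-5p and miR-194-5p, and other miRNAs were not analysed here. The members' regions were shorter, with a median length of 745 bases against 1185. The matches below lie in the most changed aldehyde dehydrogenase gene (chr19:3971359-3971365, plus strand), in the most abundant carboxylesterase gene of the Ces3 pair (chr8:105058213-105058219, plus strand) and in the flavin monooxygenase gene with the smallest adjusted p (chr1:162793894-162793900, minus strand). The mature miRNAs are from RefSeq, and capitals mark the seed in each miRNA and its match in each messenger, all written 5′ to 3′.
mmu-miR-101a-3p: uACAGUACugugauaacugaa
Aldh3b3 site: gccagagctttGTACTGTgctgtggctc
mmu-miR-103-3p: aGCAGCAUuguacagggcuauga
Ces3a site: tagcctggaccATGCTGCtgtgagccca
mmu-miR-29a-3p: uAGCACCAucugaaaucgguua
Fmo4 site: tttaaacagatTGGTGCTgctctcaaca

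These 3 seed matches are common letters: GTACTGT was in the 3′ region of 11.46% of tested genes, ATGCTGC in 13.05% and TGGTGCT in 15.71%. A positive log2 fold change was found in 5 of the 15 members with a match to any of the 11 miRNAs and in 6 of the 26 members without one. Aldh3b3 and Fmo4 had positive values and Ces3a a negative one. Ces3b, Aox1 and Aox3 held no match to these 11 seeds, which says nothing of other miRNAs. Fmo5 held 2 matches to the let-7a seed and 1 to that of miR-26a, and its log2 fold change was negative.

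The windows from 250 bases before to 50 after the RefSeq start (GRCm38.p6) are shown for Ces3b (chr8:105083505-105083804, plus strand), the carboxylesterase gene that passed the test, and for Aox1 (chr1:58029719-58030018, plus strand) and Aox3 (chr1:58112886-58113185, plus strand), neighbours whose libraries were lower together. Capitals mark matches on either strand to 4 motifs: the TATA box (TATAAA), the CCAAT box, which reads ATTGG when it lies on the other strand, a nuclear receptor element with the letters AGGTCA, and an HNF1 element with the letters GTTAAT.
Ces3b: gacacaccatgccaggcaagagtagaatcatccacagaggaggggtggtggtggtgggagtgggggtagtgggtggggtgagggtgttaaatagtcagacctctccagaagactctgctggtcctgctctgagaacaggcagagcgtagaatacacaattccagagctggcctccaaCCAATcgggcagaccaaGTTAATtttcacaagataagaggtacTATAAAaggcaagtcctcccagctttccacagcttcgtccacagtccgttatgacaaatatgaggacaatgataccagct
Aox1: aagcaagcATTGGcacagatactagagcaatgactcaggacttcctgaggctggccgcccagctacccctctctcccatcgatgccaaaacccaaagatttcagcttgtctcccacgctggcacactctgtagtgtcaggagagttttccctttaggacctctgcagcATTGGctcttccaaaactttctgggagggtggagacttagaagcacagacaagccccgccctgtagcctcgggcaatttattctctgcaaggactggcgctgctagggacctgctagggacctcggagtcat
Aox3: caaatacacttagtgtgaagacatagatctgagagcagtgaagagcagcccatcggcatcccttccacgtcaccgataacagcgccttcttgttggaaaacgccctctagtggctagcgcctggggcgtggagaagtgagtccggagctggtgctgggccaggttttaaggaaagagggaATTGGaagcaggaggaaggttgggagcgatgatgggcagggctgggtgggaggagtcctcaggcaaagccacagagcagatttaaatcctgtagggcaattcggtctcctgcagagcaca

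In the Ces3b window the TATAAA match began at position −30 relative to the start, the GTTAAT match at −56 and the CCAAT match at −73. The Aox1 window held ATTGG at −242 and −82 and the Aox3 window held it at −70, and neither held the other motifs. Over all 32851 windows in the table, TATAAA was in 13.6%, CCAAT in 37.4%, AGGTCA in 16.3% and GTTAAT in 7.1%. Of the 38 windows of the 33 tested members with a window, 6 held TATAAA, 26 CCAAT, 8 AGGTCA and 2 (Aldh1a7 and Ces3b) GTTAAT. The shares over all windows include genes not tested in these livers, so they are not a matched background. The matches are letters only and were not tested as binding sites.

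Taken by family on the deposited TPM (transcript abundance corrected for gene length), the summed level of all 58 members was 4471, 2955 and 4685 TPM in Dicer LKO replicates 1, 2 and 3 and 6729, 4772 and 5238 TPM in control replicates 1, 2 and 3. Every Dicer LKO library thus lay below every control, and Dicer LKO replicate 2 was the lowest. The margin was narrow, between 4685 and 4772 TPM. On the TPM scale the median log2 fold change of all genes was also negative, at −0.12, against −0.01 in the main fit. The sums of all members and of each family were not corrected for that shift. The carboxylesterases made up 1502 ± 336 TPM (SD, n = 3) in Dicer LKO against 2299 ± 570 TPM (SD, n = 3) in control libraries, and the aldehyde dehydrogenases 1554 ± 368 against 1954 ± 226 TPM. The alcohol dehydrogenases summed to 821 ± 200 against 1045 ± 239 TPM. The smallest sums were those of the flavin monooxygenases, at 93.9 ± 26.3 against 132 ± 20.1 TPM, and of the aldehyde oxidases, at 65.1 ± 24.4 against 150 ± 28.4 TPM. The groups did not overlap for the carboxylesterase and aldehyde oxidase sums. These are levels in bulk liver, in which fewer cells of a type and less RNA per cell cannot be told apart.

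**Figure D1:**
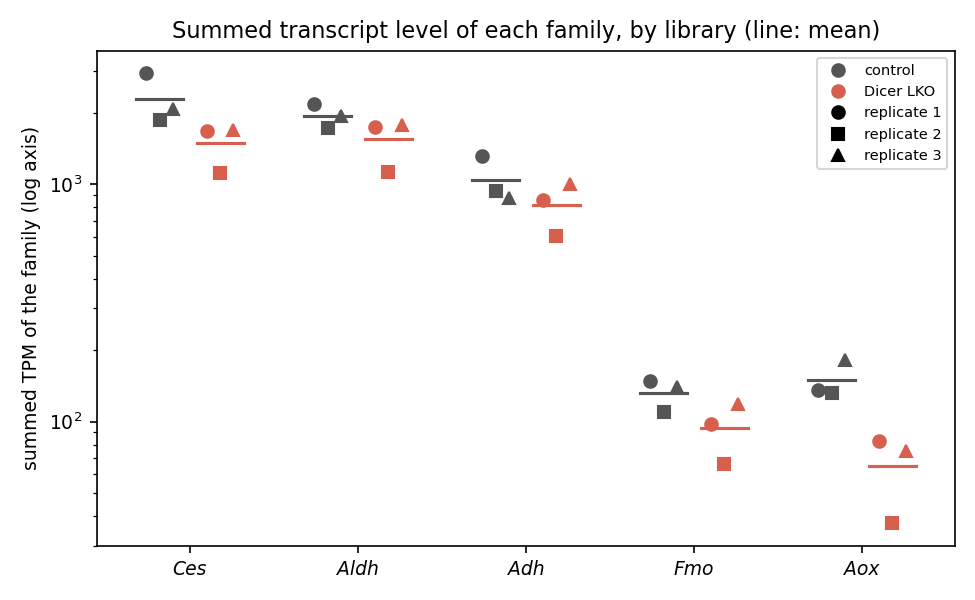
Summed TPM of each family (log axis) in each of the 6 libraries, with control in grey and Dicer LKO in red, symbols for the replicate number and a line at each group's mean. The 3 Dicer LKO libraries lay below the 3 controls for the Ces and Aox families, and the groups overlapped for Aldh, Adh and Fmo.

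Of the 58 members, 41 passed the filter and were tested, 3 were at 0 in every library (Ces1h, Fmo6 and Fmo9) and 14 had too few counts, with at most 58 counts over all libraries. In edgeR's quasi-likelihood test with Benjamini-Hochberg adjustment over all 14314 genes tested, 1 member fell (Ces3b) and 1 rose (Aldh3b3) in Dicer LKO liver. Aldh3b3 entered the tested set only through its counts in Dicer LKO, so its place among the tested members is not independent of its direction. Across all genes the test called 1.29%, with 0.741% higher and 0.552% lower. DESeq2 called 8 members: Ces1e, Ces3a, Ces3b, Aldh9a1, Aox3 and Fmo5 lower, and Aldh3b3 and Fmo4 higher. DESeq2 called 8.1% of all genes, 3.42% higher and 4.69% lower. At an unadjusted p under 0.05 in edgeR, 14 of the 41 members (34.1%) passed, against 21.0% of all genes.

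The direction was uneven: 30 of the 41 tested members (73.2%) had a negative log2 fold change, against 51.4% of all genes tested. The median was −0.29 over the members and −0.01 over all genes. Among the 24 members with a mean of at least 100 CPM, 21 were negative (87.5%) with a median of −0.35, against 54.3% and −0.03 for the 1163 genes as highly expressed. In 10 members every Dicer LKO library lay below every control, a pattern found in 15.4% of all genes, and in 3 members (Aldh3b1, Aldh3b3 and Fmo4) every Dicer LKO library lay above, as in 12.7% of all genes. The members share libraries and partly share reads, so these counts are a description.

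The libraries differed within groups in ways that move with these counts. Dicer LKO replicate 2, the library with the highest Saa1, was the lowest of its group for 29 of the 41 members (70.7%), against 38.4% of all genes. Control replicate 1 was the highest control for 24 members. Control replicate 2, the control with the highest Saa1, was the lowest control for 20. The shares of all genes with these patterns in the controls were not computed. Without Dicer LKO replicate 2, 26 of 42 tested members were negative, and the median log2 fold change of all genes was 0.023. Without control replicate 1, 25 of 42 were negative, with a median of all genes of 0.015. With Dicer LKO replicate 3 alone against the 3 controls, which leaves out the 2 libraries without most heart markers, 22 of 43 were negative.

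**Figure D2:**
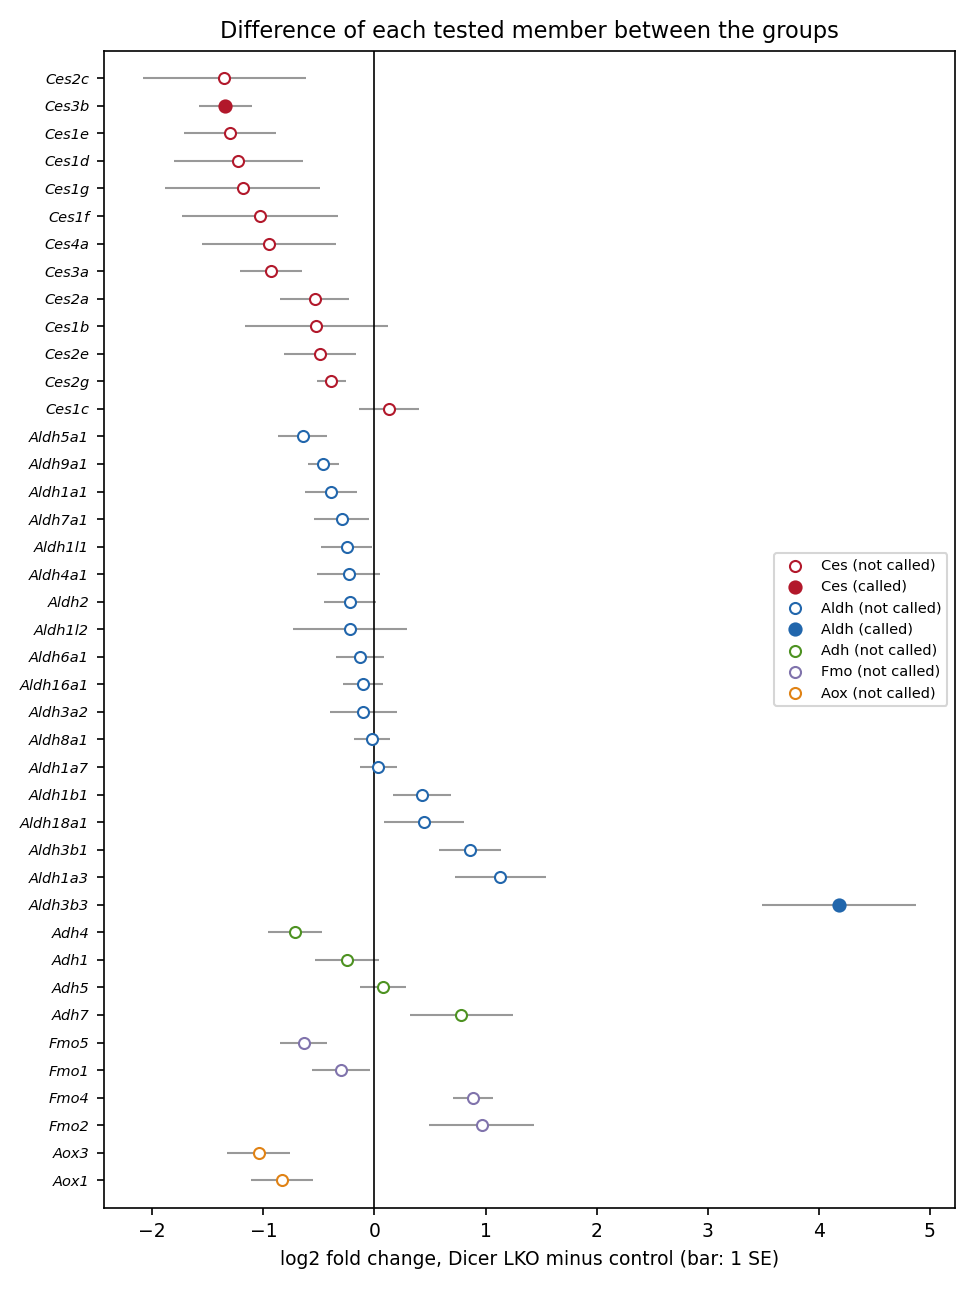
Log2 fold change of the 41 tested members, Dicer LKO minus control, grouped by family and sorted within it, with bars of 1 SE and filled points for members called at an adjusted p under 0.05. Of the 13 Ces genes 12 lie left of 0 and both Aox genes do, whereas Aldh, Adh and Fmo genes lie on both sides.

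The carboxylesterase genes lie in 2 clusters on chromosome 8, with the Ces1 genes apart from a second group that runs from Ces2a to Ces4a. Of 13 tested, 12 had negative values and the median log2 fold change was −0.95, against −0.01 for all genes. The medians were −1.11 for the 6 tested Ces1 genes, −0.51 for the 4 Ces2 genes and −1.14 for the 2 Ces3 genes. In 5 of the 13 (Ces1e, Ces2c, Ces2g, Ces3a and Ces3b) the groups did not overlap, all lower in Dicer LKO. That is 38.5%, against 15.4% of all genes that were lower without overlap. EdgeR called Ces3b, DESeq2 called Ces1e, Ces3a and Ces3b, and 4 (30.8%) passed an unadjusted p of 0.05 in edgeR. Over all genes edgeR called 1.29%, DESeq2 called 8.1%, and 21.0% passed the unadjusted p.

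Ces3b (ENSMUSG00000062181.14, protein coding, chr8:105083753-105093929, plus strand) encodes an endoplasmic reticulum carboxylesterase of liver. Its transcripts were at 193, 123 and 167 CPM in Dicer LKO replicates 1, 2 and 3 and at 457, 318 and 450 CPM in control replicates 1, 2 and 3. The lowest control stood clear of the highest Dicer LKO library. The means were 161 ± 35.4 against 409 ± 78.2 CPM (SD, n = 3 each), so that Dicer LKO livers held 39.5% of the control level. The log2 fold change was −1.34 (SE 0.24, adjusted p = 0.0470 by edgeR's quasi-likelihood test), close to the threshold. The call was lost when any 1 library was left out, with adjusted p-values of 0.0599 to 0.146 and log2 fold changes of −1.49 to −1.14. With Dicer LKO replicate 3 alone the value was −1.24 (adjusted p = 0.412).

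Its neighbour Ces3a (ENSMUSG00000069922.12, chr8:105048601-105058413, plus strand) is the fourth most abundant member by TPM. It was at 995, 541 and 932 CPM in Dicer LKO and at 1772, 1429 and 1502 CPM in control replicates 1, 2 and 3. All 3 Dicer LKO libraries were below the controls, and the log2 fold change of −0.93 (SE 0.28) missed the threshold in edgeR (adjusted p = 0.123) and passed it in DESeq2 (adjusted p = 0.00877). Both genes carried non-whole expected counts in every library, which means that reads fitting more than 1 gene were divided by a model. Summed, which removes any error of division between them, the pair was at 984 ± 280 CPM in Dicer LKO and 1976 ± 242 CPM in control (SD, n = 3 each), or 49.8% of control. Ces3a also overlaps the predicted gene Gm45724 on the opposite strand, and no source used here gives the strand setting of the counts.

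The Ces1 genes included the most abundant member of all. Ces1c, which encodes the main esterase of mouse plasma, was at 917, 687 and 739 TPM in Dicer LKO and at 1027, 693 and 599 TPM in control replicates 1, 2 and 3. The groups overlapped throughout, and the log2 fold change was 0.13 (SE 0.27, adjusted p = 0.824), the one positive value among the tested Ces genes. It was −0.01 without control replicate 3. Summed with Ces1b, a neighbouring gene that also had non-whole counts in 5 libraries, the level in Dicer LKO was 104% of control.

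Ces1d encodes the microsomal triacylglycerol hydrolase that mobilises stored fat for lipoprotein assembly. It was at 153, 90.5 and 250 CPM in Dicer LKO and at 698, 188 and 267 CPM in control replicates 1, 2 and 3. Control replicate 1 stood far above the other 5 libraries, and the log2 fold change went from −1.22 (SE 0.58, adjusted p = 0.290) to −0.47 without it. Ces1f was at 159, 39.3 and 287 CPM against 487, 207 and 297 CPM, with overlapping groups and a log2 fold change of −1.03 (SE 0.70, adjusted p = 0.458). That value was −0.52 without Dicer LKO replicate 2, −1.73 without replicate 3, −0.64 without control replicate 1 and −0.16 with Dicer LKO replicate 3 alone. In Dicer LKO its highest library was 7.32 times its lowest, compared with 2.35 times in controls.

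Ces1e encodes egasyn, which holds β-glucuronidase in the endoplasmic reticulum. It was at 41.4, 22.1 and 49.4 CPM in Dicer LKO and at 132, 52.6 and 93.0 CPM in control, with no overlap by a small margin between 49.4 and 52.6 CPM. Its log2 fold change of −1.30 (SE 0.41) had an adjusted p of 0.149 in edgeR and 0.0145 in DESeq2. Ces1b and Ces1g varied widely between the Dicer LKO libraries, with highest-to-lowest ratios of 6.98 and 6.72. Their log2 fold changes of −0.52 (SE 0.65) and −1.19 (SE 0.70) did not pass the test.

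All 4 tested Ces2 genes had negative values. Ces2c was at 12.4, 1.72 and 17.3 CPM in Dicer LKO and at 26.5, 20.4 and 33.7 CPM in control replicates 1, 2 and 3, a log2 fold change of −1.35 (SE 0.74, adjusted p = 0.358). The groups did not overlap, but Dicer LKO replicate 2 was far below the other 5 libraries. The value was −0.81 without it and −0.58 with Dicer LKO replicate 3 alone. Ces2a, Ces2e and Ces2g had values of −0.54, −0.49 and −0.39, none of which passed the test. Ces2g varied least, at 20.3, 19.0 and 23.1 CPM against 27.0, 26.2 and 28.4 CPM. Ces4a, at 1.40 CPM or less in every library, had a value of −0.95 (SE 0.60). Among the untested Ces genes, Ces2b had no counts in Dicer LKO and 1, 3 and 5 counts in control replicates 1, 2 and 3, too few to give a fold. Ces2d-ps, annotated as an unprocessed pseudogene, had no counts in Dicer LKO and 2.01 or fewer in control.

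**Figure D3:**
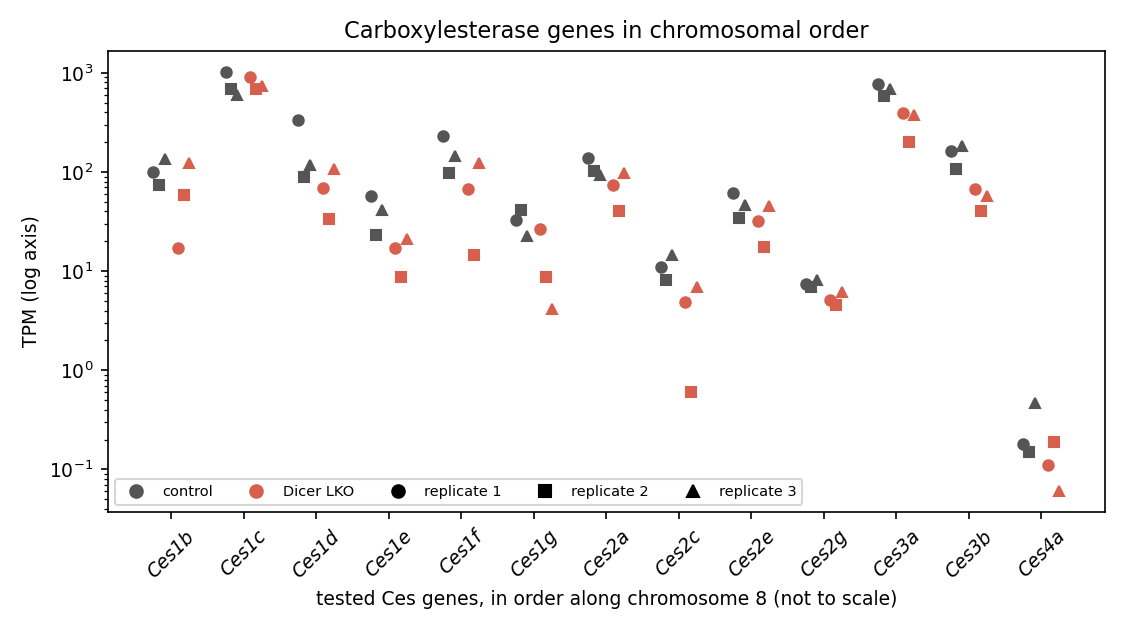
TPM (log axis) of the 13 tested carboxylesterase genes in their order along chromosome 8, not to scale, with control in grey, Dicer LKO in red and a symbol for each replicate number. Dicer LKO replicate 2 is lowest in most genes, Ces1c shows no separation, and Ces3a and Ces3b show a gap between the groups.

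The aldehyde oxidase genes lie side by side on chromosome 1, and the 2 that liver expresses, Aox1 and Aox3, were both lower in every Dicer LKO library than in every control. EdgeR called 0 of the 2, both passed an unadjusted p of 0.05, and DESeq2 called Aox3. Among all genes tested, 15.4% were lower without overlap, 21.0% passed the unadjusted p and DESeq2 called 8.1%. Aox3 (ENSMUSG00000064294.12, chr1:58113130-58200698, plus strand), the principal form in mouse liver, was at 434, 210 and 387 CPM in Dicer LKO and at 678, 666 and 778 CPM in control replicates 1, 2 and 3. The Dicer LKO mean of 344 ± 118 CPM was 48.7% of the control mean of 707 ± 61.4 CPM (SD, n = 3 each), and the gap between the groups was wider than the range among controls. Its log2 fold change was −1.04 (SE 0.28, adjusted p = 0.102 by edgeR's quasi-likelihood test and 0.00613 by DESeq2). Its gene overlaps Gm24548 on the opposite strand.

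Aox1 (ENSMUSG00000063558.4, chr1:58029931-58106413, plus strand) was at 65.9, 31.5 and 54.0 CPM in Dicer LKO and at 76.6, 80.6 and 112 CPM in control replicates 1, 2 and 3. The groups were separated less widely than for Aox3. The log2 fold change was −0.83 (SE 0.28, adjusted p = 0.156), and it was −0.54 without Dicer LKO replicate 2. On the TPM scale, which allows genes to be compared, Aox3 stood at 96.5 and Aox1 at 11.1 TPM over all libraries. Aox2 and Aox4, known from nasal tissue and the Harderian gland, had 2 counts or fewer in each library and were not tested.

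The flavin monooxygenases split by gene. Of 4 tested, edgeR called 0, 2 passed an unadjusted p of 0.05 (Fmo4 and Fmo5), and DESeq2 called the same 2, in opposite directions. Among all genes tested, 21.0% passed the unadjusted p and DESeq2 called 8.1%. Fmo5 (ENSMUSG00000028088.14, chr3:97628804-97655282, plus strand), which oxidises ketones to esters and is the most abundant of the family here, was at 257, 175 and 273 CPM in Dicer LKO and at 366, 329 and 404 CPM in control replicates 1, 2 and 3. All Dicer LKO libraries were below all controls, with a log2 fold change of −0.64 (SE 0.21, adjusted p = 0.151 in edgeR and 0.0497 in DESeq2). It was −0.42 without Dicer LKO replicate 2.

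Fmo4 (ENSMUSG00000026692.12, chr1:162793188-162813972, minus strand) had a positive value, at 12.2, 11.3 and 13.9 CPM in Dicer LKO and 8.07, 6.34 and 5.80 CPM in control replicates 1, 2 and 3. The libraries of each group lay close together, and the lowest Dicer LKO library was above the highest control. Its log2 fold change of 0.89 (SE 0.18) had adjusted p-values of 0.0624 in edgeR and 0.00321 in DESeq2. Without control replicate 1 edgeR gave 1.04 (adjusted p = 0.0373), and with no filter on low counts 0.89 (adjusted p = 0.0364). The other edgeR fits that left out 1 library missed the threshold (adjusted p = 0.0900 to 0.187). So did edgeR with library totals (0.0869) and with the replicate block (0.0871), limma-voom (0.0787) and limma on TPM (0.204).

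Fmo2, best known from lung, was at 15, 20.0 and 24.9 CPM in Dicer LKO and at 18.2, 5.57 and 6.70 CPM in control replicates 1, 2 and 3. Control replicate 1 overlapped the Dicer LKO group. The log2 fold change was 0.97 (SE 0.47, adjusted p = 0.30 in edgeR), and it became 1.70 (adjusted p = 0.0344) without that library. In the other edgeR fits that left out 1 library it was 0.70 to 1.14 and missed the threshold (adjusted p = 0.398 to 0.538). Lung markers were at 0.288 CPM or less in sum in every library, with Sftpc, Sftpb and Scgb1a1 at 0. Fmo1, which acts on many amines and thioethers, had overlapping groups and a value of −0.30 (SE 0.26, adjusted p = 0.556), which was −0.025 without Dicer LKO replicate 2.

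Among the aldehyde dehydrogenases, 18 of 21 were tested, 12 had negative values and the median log2 fold change was −0.12. That median was 0.05 without Dicer LKO replicate 2 and 0.02 without control replicate 1, so it has no settled direction. The gene that rose was Aldh3b3 (ENSMUSG00000037263.13, chr19:3958645-3972103, plus strand), which encodes a membrane-attached enzyme acting on fatty aldehydes. It had expected counts of 40.9, 52.0 and 14.8 in Dicer LKO and 2, 2 and 1 in control replicates 1, 2 and 3, and passed the filter only through the Dicer LKO group. In CPM these were 1.88, 2.48 and 0.598 against 0.0901, 0.0961 and 0.0638, so it was nearly silent in control liver and low in Dicer LKO liver.

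The fitted log2 fold change of Aldh3b3 was 4.18 (SE 0.70, adjusted p = 0.0423 by edgeR's quasi-likelihood test). The edgeR fit with no filter on low counts does not depend on that admission and gave 4.19 (adjusted p = 0.00661). It used the same libraries, so it is no separate support. The ratio of the summed counts, each taken relative to the summed TMM-adjusted library sizes of its group, was 18.7. Its exact 95% interval, which covers counting error only, ran from 7.76 to 58.7. The call held without Dicer LKO replicate 3 (adjusted p = 0.0346) and was lost in the other 5 fits that left out 1 library (0.0649 to 0.126). With Dicer LKO replicate 3 alone the value was 2.78 (adjusted p = 0.483). Its counts were not whole in 2 libraries, and summed with its neighbour Aldh3b2, which had about 1 count in each Dicer LKO library and none in control, the level was 1.70 ± 0.965 against 0.0833 ± 0.0172 CPM (SD, n = 3 each).

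Aldh3b1, the third gene of that cluster on chromosome 19, was at 4.49, 4.53 and 5.06 CPM in Dicer LKO and at 1.85, 3.65 and 2.23 CPM in control replicates 1, 2 and 3. The groups did not overlap, and the log2 fold change of 0.86 (SE 0.28, adjusted p = 0.146) missed the threshold. Aldh1a3, a retinaldehyde dehydrogenase found mostly outside hepatocytes, had the next largest positive value, 1.13 (SE 0.41, adjusted p = 0.173). It was at 1.38, 2.62 and 2.55 CPM against 0.766, 1.49 and 0.701 CPM, with overlap.

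Markers of several other liver cell types also differed between the groups, beside Aldh3b1, Aldh3b3, Aldh1a3 and Fmo2, which are low in whole liver. Over all genes tested, edgeR called 1.29%. All 4 erythroid markers were called higher, with sums of 731 to 1400 CPM in Dicer LKO against 129 to 184 CPM in control libraries. Of 6 bile duct markers, 5 had positive values and 3 were called, with sums of 141 to 267 against 32.0 to 46.6 CPM. They include the duct keratins Krt7 and Krt19. For 9 stellate cell and fibroblast markers (7 positive, 2 called) the sums were 539 to 598 against 392 to 431 CPM. All 7 macrophage markers were positive (1 called), with overlapping sums of 327 to 421 against 178 to 400 CPM. The 6 endothelial markers were all positive (0 called), at 357 to 471 against 245 to 326 CPM. Neutrophil markers, of which 3 of 4 were tested and all 3 were positive (0 called), summed to 27.3 to 60.5 against 1.66 to 17.3 CPM. The part of these cells in the values of the low-expressed members was not tested.

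The abundant aldehyde dehydrogenases differed little relative to their spread. Aldh2, the mitochondrial enzyme that clears acetaldehyde, was at 594, 375 and 579 TPM in Dicer LKO and at 694, 531 and 681 TPM in control replicates 1, 2 and 3. The groups overlapped, and the log2 fold change was −0.22 (SE 0.23, adjusted p = 0.630). Aldh1a1, which oxidises retinaldehyde, had a value of −0.39 (SE 0.23), and −0.25 (SE 0.23) was found for Aldh1l1, the formyltetrahydrofolate dehydrogenase. Aldh7a1, of lysine breakdown, had a value of −0.29 (SE 0.25). None passed the test. Without Dicer LKO replicate 2 the 4 values were −0.019 (Aldh2), −0.19 (Aldh1a1), −0.071 (Aldh1l1) and −0.029 (Aldh7a1), and Aldh1l1 was at 0.035 with Dicer LKO replicate 3 alone.

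Aldh9a1, which makes a carnitine precursor, was at 127, 108 and 113 CPM in Dicer LKO and at 150, 157 and 171 CPM in control replicates 1, 2 and 3. Its groups did not overlap and its libraries varied little within a group. The log2 fold change was −0.46 (SE 0.14, adjusted p = 0.127 in edgeR), and DESeq2 called it. Aldh5a1, the succinate semialdehyde dehydrogenase, was at 42.6, 26.1 and 45.6 CPM against 59.0, 51.7 and 68.0 CPM, again with no overlap and a value of −0.64 (SE 0.22, adjusted p = 0.158). Aldh8a1, Aldh6a1, Aldh4a1, Aldh3a2, Aldh16a1, Aldh1l2 and Aldh1a7 had values between −0.23 and 0.04, and Aldh1b1 and Aldh18a1 had 0.43 and 0.45. The groups overlapped in all 9.

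Of the alcohol dehydrogenases, 4 of 6 were tested, edgeR and DESeq2 called 0, and 1 (Adh4) passed an unadjusted p of 0.05 in edgeR. That unadjusted p was passed by 21.0% of all genes tested. Adh1, the main ethanol-oxidising enzyme of mouse liver and the second most abundant member, was at 639, 437 and 778 TPM in Dicer LKO and at 1058, 673 and 632 TPM in control replicates 1, 2 and 3. Its groups overlapped, and the log2 fold change of −0.25 (SE 0.29, adjusted p = 0.665) became 0.014 without control replicate 1 and −0.041 without Dicer LKO replicate 2. Adh4, the liver class II enzyme, was at 111, 72.4 and 101 CPM in Dicer LKO and at 110, 175 and 182 CPM in control. Control replicate 1 lay within the Dicer LKO range, and the log2 fold change was −0.72 (SE 0.24, adjusted p = 0.152).

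Adh5, which with glutathione removes formaldehyde, stood at 299, 273 and 304 CPM in Dicer LKO and 346, 273 and 212 CPM in control replicates 1, 2 and 3. Its log2 fold change of 0.07 (SE 0.21, adjusted p = 0.871) was −0.03 when counts were scaled by library totals alone. Adh7, the class IV enzyme of upper digestive tract epithelium, was at 2.67 CPM or less in every library, with a value of 0.78 (SE 0.47, adjusted p = 0.378) that was 0.47 without Dicer LKO replicate 2. The family median of −0.09 was 0.06 without Dicer LKO replicate 2 and 0.14 without control replicate 1.

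**Figure D4:**
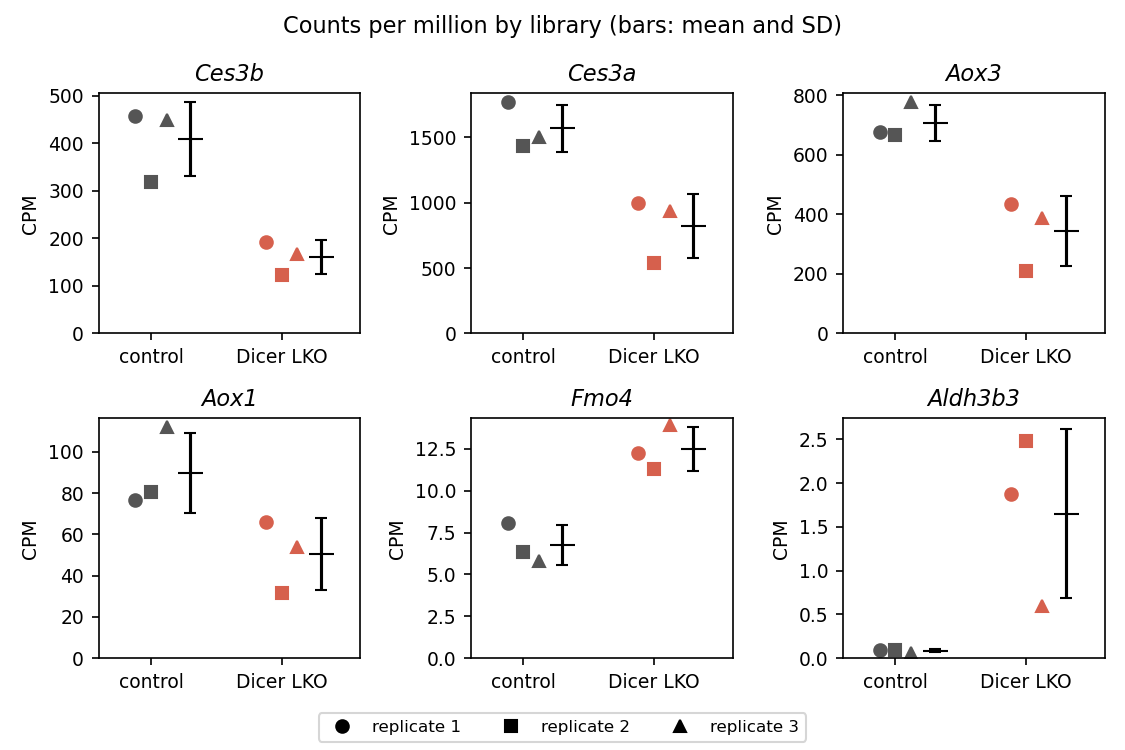
CPM by library for Ces3b, Ces3a, Aox3, Aox1, Fmo4 and Aldh3b3, each panel with its own linear axis from 0, a symbol for each replicate number and bars for the mean and SD of the 3 libraries of a group. The groups do not overlap in any of the 6 panels, with Dicer LKO lower in the first 4 and higher in Fmo4 and Aldh3b3.

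Other genes of the same reactions were read from lists. For comparison with every list from here on, edgeR called 1.29% of all genes tested and DESeq2 8.1%, and 21.0% passed an unadjusted p of 0.05. Of 24 tested retinoid handling genes, edgeR called 0, 3 passed an unadjusted p of 0.05 and DESeq2 called 1 higher. Their median log2 fold change was −0.02. Rbp4 and Ttr, the plasma carriers of retinol, had values of −0.26 (SE 0.23) and −0.11 (SE 0.33). Of 18 other alcohol and aldehyde enzymes, edgeR called 0, 4 passed the unadjusted p and DESeq2 called 2 higher. Their median was −0.05, with values from −1.19 to 4.09. The groups did not overlap for 7 of them, 6 higher and 1 lower in Dicer LKO. Of all genes tested, 12.7% were higher and 15.4% lower without overlap. Catalase (Cat) and Cyp2e1, the other ethanol-oxidising enzymes of liver, had −0.51 (SE 0.26) and −0.27 (SE 0.38), neither called.

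Of 17 other tested ester and lipid hydrolases, edgeR called 0, 1 passed an unadjusted p of 0.05 and DESeq2 called 1 higher. Their median was −0.01, beside −0.95 for the carboxylesterases. The paraoxonase Pon1 had 0.13 (SE 0.18) and the arylacetamide deacetylase Aadac −0.24 (SE 0.29). Of 9 tested genes for the molybdenum cofactor and its other enzymes, edgeR and DESeq2 called 0, 2 passed the unadjusted p, and the median was −0.17, beside −0.94 for Aox1 and Aox3. The molybdenum enzymes Marc1 and Marc2 had −0.18 (SE 0.20) and −0.21 (SE 0.24).

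For 18 xenobiotic regulators and electron carriers, edgeR and DESeq2 called 0, 2 passed an unadjusted p of 0.05, and the median was −0.07. Cyp3a11, a target of xenobiotic receptors, had 0.51 (SE 0.37) and the electron carrier Cyb5a −0.10 (SE 0.25). Of 24 tested enzymes next to aldehyde dehydrogenases in proline, choline, carnitine and folate metabolism, edgeR called 0, 3 passed the unadjusted p, DESeq2 called 1 lower, and the median was −0.07. Bhmt, which uses the betaine made from choline, had 0.96 (SE 0.38, adjusted p = 0.202) and Oat, the ornithine aminotransferase, −0.02 (SE 0.37).

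Sex-biased liver genes differed between the same libraries. Of 18 listed female-biased genes 10 were tested, and 9 of these had positive values with a median of 2.65. EdgeR called 3 higher (Cyp3a44 at 4.40, Cux2 at 2.75 and Cyp39a1 at 1.82) and DESeq2 8. Cyp3a44 had 4, 4 and 2 counts in control replicates 1, 2 and 3 and passed the filter only through Dicer LKO. The counts of positive and called female-biased genes are therefore not independent of the filter. Of 18 male-biased genes, 17 were negative with a median of −2.02; edgeR called 2 lower (Mup21 at −2.76 and Cyp2u1 at −2.24) and DESeq2 11. All 6 libraries had the Ddx3y and Xist levels given above. Whether the differences in carboxylesterases, aldehyde oxidases and flavin monooxygenases go with those of the sex-biased genes was not tested.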

How the data were processed

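RNA-seq of whole liver was analysed in 6 libraries. Per the file headers, the authors deposited for each library an expected count for every gene (reads estimated by a model, without normalization) and its TPM (scaled for length to a common total). The submitters' processing notes name CASAVA, Bowtie and the build hg19, although the gene identifiers are mouse; no source used here gives the counter, annotation or strand. Identifiers matched GENCODE M21 (GRCm38) for 50376 genes (99.56%).

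Expected counts were rounded, filtered with filterByExpr and TMM-scaled. They were tested with edgeR 4.0.16 (R 4.3.3; robust quasi-likelihood test; genotype as the only term), with calls at p under 0.05 after Benjamini-Hochberg adjustment over all genes. SE stands for the size of the log2 fold change over the square root of its F statistic. DESeq2 1.42.0 and limma 3.58.1 were alternatives, with TPM tested as log2(TPM + 0.1). Named genes were called members, non-overlapping members with an absolute log2 fold change of at least 1, the 4 most abundant by TPM in each family, and, per list, called or the 2 most abundant genes; other members were named after their values were seen. Members and lists were chosen with earlier results of these data known. Scripts were tested on simulated data. The 6 columns of a table of the whole series repeated these counts and were not used. The values of 1 untested member are not reported here.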

Additional observations from a re-analysis of the deposited data

How the results depend on the processing

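Against 185 genes called in all, the count was 103 with library totals, 1160 with DESeq2, 92 with limma-voom, 422 without the filter, 74 with limma on TPM, and 23 to 389 when 1 library was left out (389 without control replicate 1, 23 without control replicate 3). With Dicer LKO replicate 3 alone, chosen after seeing the data and with its spread assumed to be that of the controls, it was 27. Against 2 members called, these settings gave 1, 8, 0, 3 and 0, then 0 to 2 with 1 library left out, and 0. Of the calls, 57.3% were higher in Dicer LKO, against 42.2% with DESeq2 and 19.5% to 82.1% with 1 library left out. The median of all genes shifted to −0.13 with library totals and −0.12 with TPM.

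With 1 library left out, the medians ranged from −1.03 to −0.64 (Ces), −1.15 to −0.64 (Aox), 0.14 to 0.48 (Fmo), −0.18 to 0.048 (Aldh) and −0.21 to 0.14 (Adh). With Dicer LKO replicate 3 alone they were −0.57, −0.75, 0.59, 0.049 and 0.13. With 1 library left out the direction also varied for Adh1 (−0.41 to 0.014), Adh5 (−0.060 to 0.27) and Ces1c (−0.014 to 0.38). Adh5 was at −0.031 with library totals and −0.041 with TPM, and Adh1 at 0.078, Aldh1l1 at 0.035 and Fmo1 at 0.091 with Dicer LKO replicate 3 alone. Ces3b missed the threshold with library totals (0.0562), limma-voom (0.0591) and TPM (0.0606), and Aldh3b3 with limma-voom (0.0932) and TPM (0.101). The causes were not tested.

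Same-numbered libraries did not deviate together (correlations 0.127, 0.067 and −0.132). With the replicate block, 245 genes and 3 members (Aldh3b3, Ces1e and Ces3b) were called; not every library correlated best with its own number. Leaving out libraries over 10 times the control median of heart markers was not run, since none passed that limit.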
